A study of Mus musculus with 7 samples.

Results

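The genes described here encode the nuclear subunits of the mitochondrial respiratory chain and ATP synthase. They were chosen by name alone: every row of the expression table whose symbol starts with Ndufa, Ndufb, Ndufc, Ndufs or Ndufv and a digit, with Cox, a digit from 4 to 8 and a letter, with Uqcr, or with Atp5. The rule found 81 of the 22552 symbols. Grouped by name, 37 of these were counted under complex I, 8 under complex III, 18 under complex IV and 15 under complex V, the ATP synthase. This grouping puts Ndufa4 and its paralog Ndufa4l2 under complex I and Cox7a2l under complex IV. The other 3, Cox4nb (now Emc8), Atp5s and Atp5sl, share only the prefix and encode no subunit; they were kept in the counts because the rule holds them. Complex II carries other prefixes and is described among the related lists. The same holds for Cyc1, a subunit of complex III that the prefixes miss.

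RNA was sequenced from cells purified by flow sorting from the skin of mice of mixed CD1/C3H strain at postnatal day 50. Ear epidermis and ear dermis came from wild-type mice (Wt/Wt, WT) and from mice heterozygous for Koa (Wt/Koa), which is dominant, inverts part of distal chromosome 15 and gives hairy ears. Dorsal epidermis, dorsal dermis and tail dermis came from WT mice. Each of the 7 groups had 1 library, so no difference has a replicate check, no p-value is given, and the number of animals behind a library is not given in the sources used here. The sorting gates are not given there either. Because these are bulk libraries, fewer cells of a type and less RNA per cell cannot be told apart.

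The respiratory chain passes electrons from NADH through complex I, and from succinate through complex II, to ubiquinone, complex III, cytochrome c and complex IV, where oxygen is reduced. Complexes I, III and IV pump protons across the inner mitochondrial membrane, and ATP synthase uses the gradient to make ATP. Several subunits of complex IV exist as a widespread form and a form restricted to muscle, testis or other tissues. A few core subunits are encoded by mitochondrial DNA and were not analysed here.

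The promoters of these genes were set side by side because the members are scattered over 19 chromosomes. RefSeq windows of GRCm38.p6, from 250 bases before to 50 after the start site, were found for 66 members (72 windows) and set beside 18474 windows of all symbols. In all, 15 motifs were searched on both strands, and 12 of them stood in a larger share of member windows. The motif GCGCATGCG, of the factor NRF1, stood in 11.1% of member windows against 2.46% of all windows. Of its longer forms, both of 10 bases and named here without letters, the one with any base at its sixth place stood in 16 member windows (22.2%) against 6.56%, and the full palindrome in 5 (6.94%) against 1.39%. The YY1 motif AAGATGGC stood in 16.7% of member windows against 3.12%, and its longer form in 8.33% against 0.926%. The ETS motif CCGGAAG was found in 19.4% against 11.6%, and its longer form CCGGAAGT in 6.94% against 5.16%. The ZNF143 motif stood in 4.17% against 0.357%, the estrogen-related receptor motif AAGGTCA in 9.72% against 3.96%, the cyclic AMP response element TGACGTCA in 5.56% against 2.35%, the E box CACGTG in 12.5% against 8.20% and the sequence CCAAT in 41.7% against 38.3%. The other 3 were no more frequent in member windows. The GC box GGGCGG stood in 37.5% against 48.0%, the sequence TATAAA in 11.1% against 12.2% and the nuclear receptor motif TGACCTTTG in 0 against 0.428%. Longer and shorter forms of a motif overlap. Mean GC content was 57.4% in member windows and 56.7% in all, and the median number of CpG was 19 against 14. These shares describe letters, with no test, and a match is not a shown binding site. The 4 members with the full NRF1 palindrome before the start site are printed next, as the 250 bases before the start, 5′ to 3′ on the gene's strand, with that motif in capitals. In the fifth, Uqcrc1, the match lay after the start site.
Cox6a1, chr5:115348959-115349208, minus strand: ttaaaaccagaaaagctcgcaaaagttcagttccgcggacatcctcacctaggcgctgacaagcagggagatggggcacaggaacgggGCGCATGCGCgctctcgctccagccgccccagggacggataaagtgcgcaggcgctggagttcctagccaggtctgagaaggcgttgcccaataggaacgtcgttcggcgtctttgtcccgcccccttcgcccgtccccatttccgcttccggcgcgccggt
Atp5g2, chr15:102671048-102671297, minus strand: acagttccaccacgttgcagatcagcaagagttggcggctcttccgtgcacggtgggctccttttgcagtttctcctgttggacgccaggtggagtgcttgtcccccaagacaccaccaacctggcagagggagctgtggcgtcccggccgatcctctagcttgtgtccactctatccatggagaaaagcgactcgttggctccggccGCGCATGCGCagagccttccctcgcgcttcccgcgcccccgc
Atp5k, chr5:108434400-108434649, minus strand: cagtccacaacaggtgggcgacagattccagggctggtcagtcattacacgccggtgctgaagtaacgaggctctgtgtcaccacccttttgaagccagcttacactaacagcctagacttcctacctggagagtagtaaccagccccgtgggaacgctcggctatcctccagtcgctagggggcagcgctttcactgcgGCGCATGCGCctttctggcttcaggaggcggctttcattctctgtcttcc
Ndufa11, chr17:56717512-56717761, plus strand: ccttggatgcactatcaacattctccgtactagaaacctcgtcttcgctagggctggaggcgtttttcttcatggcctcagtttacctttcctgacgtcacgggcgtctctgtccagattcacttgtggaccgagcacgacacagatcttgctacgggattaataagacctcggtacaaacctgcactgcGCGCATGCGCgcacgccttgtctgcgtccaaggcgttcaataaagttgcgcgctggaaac
The motif begins 162 bases before the start in Cox6a1, 42 in Atp5g2, 50 in Atp5k and 60 in Ndufa11. Cox7b and Cox8b had the largest differences of the members between Koa and WT ear epidermis and between dorsal and ear dermis. Their corresponding bases hold no such match, as is usual, since only 5 of the 66 members have it in their windows. These 250 bases hold 5 and 1 CpG, while the medians of 19 and 14 above are for the longer windows. A link between these promoters and the differences was not tested.
Cox7b, chrX:106015450-106015699, plus strand: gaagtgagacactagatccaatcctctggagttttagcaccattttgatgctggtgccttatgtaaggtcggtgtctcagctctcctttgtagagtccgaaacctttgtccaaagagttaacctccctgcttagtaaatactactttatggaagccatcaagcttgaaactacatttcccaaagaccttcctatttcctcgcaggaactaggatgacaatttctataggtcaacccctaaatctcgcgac
Cox8b, chr7:140900447-140900696, minus strand: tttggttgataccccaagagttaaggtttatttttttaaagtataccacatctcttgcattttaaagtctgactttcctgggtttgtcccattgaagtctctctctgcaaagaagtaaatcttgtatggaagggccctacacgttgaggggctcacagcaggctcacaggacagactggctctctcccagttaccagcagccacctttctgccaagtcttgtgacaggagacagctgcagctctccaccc

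The 6 libraries other than tail had depths between 31.6 and 40.4 M fragments (M, mega), recovered from the steps that whole fragments leave in low values; the depth of the tail library is unknown. Its values are rounded to 2 decimals. A tail value of 0 was read as missing, because 222 symbols with at least 10 FPKM in all the others are 0 in tail; among the members this touched Cox4nb. For fibroblasts and basal keratinocytes the labelled layers held their own markers. The summed level of 10 fibroblast markers was 6237 to 11430.1 FPKM in the dermal libraries and 66.6 to 116 FPKM in the epidermal ones. That of 8 basal keratinocyte markers was 15148 to 19977 FPKM in the epidermal ones. The summed level of 4 T cell and Langerhans cell markers, among them Cd207, was 23.5 to 220 FPKM in the dermal libraries. In the epidermal ones it was only 0.44 to 4.18 FPKM. The dermal libraries also held keratinocyte RNA. By the median of those markers it came to 11.6% of the epidermal level in Koa ear dermis, 8.0% in WT ear dermis and 40.7% in WT dorsal dermis. All 11 of a list of stress-response genes, among them Fos, Jun and Hspa1a, were in the table; their summed level was 488 to 966 FPKM in the 4 ear libraries, 5072 FPKM in dorsal dermis, 10044 FPKM in dorsal epidermis and 8644 FPKM in tail dermis.

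Most subunit genes were abundant. FPKM counts fragments per kilobase of transcript, relative to the library's mapped fragments. It is per length, so levels can be set side by side between genes. In every one of the 6 libraries other than tail, 75 members stood at 1 FPKM or more and 68 at 10 FPKM or more. Only Cox8c stayed under 1 FPKM in all 7 libraries. The summed level of the members made up 2.84% of all FPKM in WT ear epidermis, 2.33% in WT dorsal epidermis and 2.26% in Koa ear epidermis, with short RNAs left out of the total. In the dermal libraries it was 1.83% in WT ear, 1.88% in WT dorsal, 1.73% in Koa ear and 1.78% in tail. Every epidermal share was above every dermal one.

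**Figure D1:**
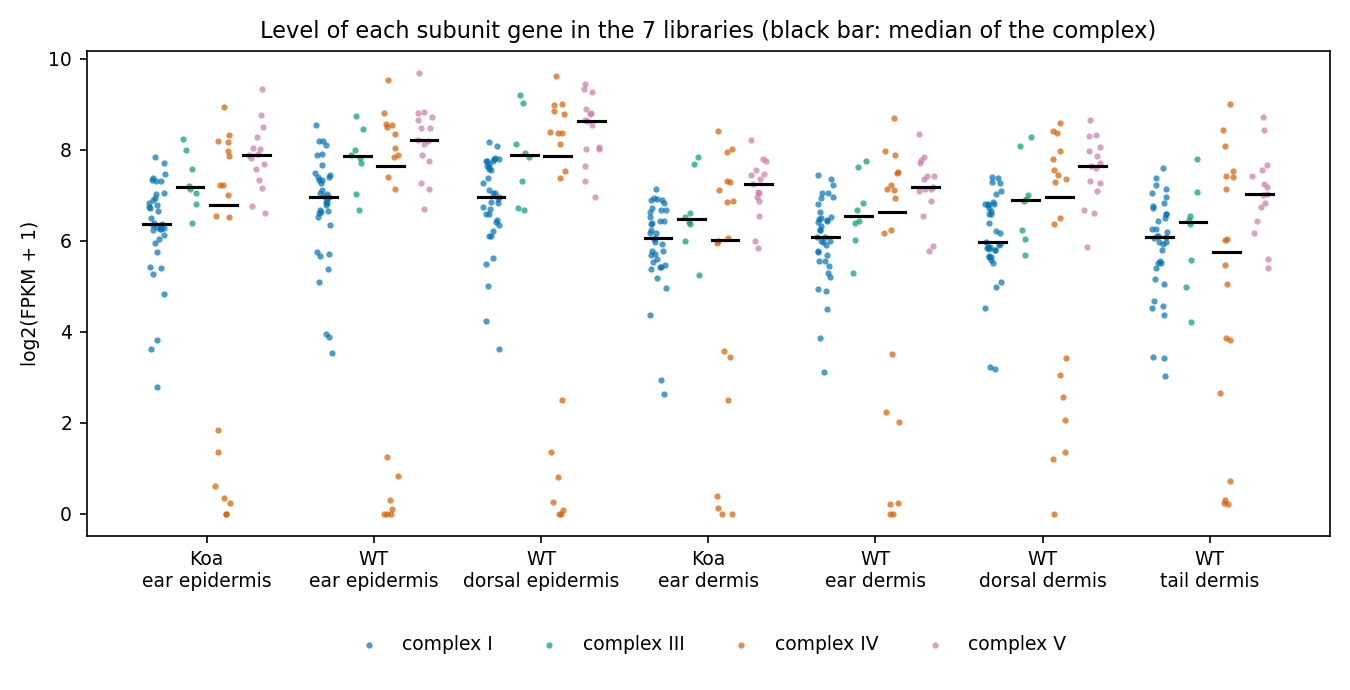
Level of each subunit gene, as log2(FPKM + 1), in the 7 libraries, coloured by complex, each point being 1 gene and each black bar the median of a complex. Complex V has the highest median in every library (297 FPKM in WT ear epidermis), and the low points of complex IV are its tissue-restricted forms.

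The plot of levels by library shows the order of the complexes. In WT ear epidermis the median level was 123 FPKM for complex I, 230 FPKM for complex III, 198 FPKM for complex IV and 297 FPKM for complex V. In WT ear dermis the same medians were 67.2, 92.8, 98.3 and 144 FPKM. Complex V was highest and complex I lowest in both.

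Complex I, the NADH dehydrogenase, had its highest medians over the 6 libraries in Ndufa4 (197 FPKM, 452 nt) and Ndufa12 (178 FPKM, 1110 nt). Its lowest were in Ndufs5 (10.9 FPKM, 599 nt) and Ndufa11 (9.79 FPKM, 545 nt). Ndufa4 carries a complex I name, but its human counterpart was later assigned to complex IV. In complex III, which passes electrons from ubiquinol to cytochrome c, the small subunits Uqcrb (286 FPKM, 535 nt) and Uqcrh (283 FPKM, 547 nt) were highest. Its core subunit Uqcrc2 (82.6 FPKM, 1896 nt) and the Rieske iron-sulfur protein Uqcrfs1 (66.6 FPKM, 1363 nt) were lowest, and both have longer transcripts. In complex IV, cytochrome c oxidase, Cox4i1 (453 FPKM, 745 nt) and Cox6a1 (325 FPKM, 571 nt) led. Cox6a2 (0.091 FPKM, 680 nt) and Cox8c (listed at 0, 458 nt) stood last. In ATP synthase the catalytic beta subunit Atp5b (524 FPKM, 1916 nt) and Atp5h of the peripheral stalk (340 FPKM, 625 nt) led. The delta subunit Atp5d (99.6 FPKM, 931 nt) and Atp5g1 (77.5 FPKM, 691 nt) were lowest. Subunit c, which forms the membrane ring, is encoded by the 3 paralogs Atp5g1, Atp5g2 and Atp5g3, which differ in their leader peptides. In WT ear epidermis Atp5g3 stood at 445 FPKM, Atp5g2 at 278 FPKM and Atp5g1 at 139 FPKM. In WT ear dermis the order was the same, with 171, 117 and 57.7 FPKM. Transcripts nearly identical to another gene (at least 95% identity over at least 50% of the length) belong to 12 members, most of all to Atp5l with 8 other genes, and the division of reads among such copies is uncertain.

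The subunit genes were higher in epidermis than in dermis. In WT ear the median difference on the log2(FPKM + 1) scale was 0.91 over 77 members at 1 FPKM or more in 1 of the libraries, against 0.09 over all symbols, and 72 of the 77 were above 0 (53.9% of all symbols). The size rule asks for a difference of 1 or more on that scale. By it, 29 members were higher (14.4% of all symbols tested) and 3 lower (21.3% of all symbols). In WT dorsal skin the median was 0.84 over 80 members against 0.14 over all symbols, with 20 higher (8.27% of all symbols) and 4 lower (16.1%). In Koa ear it was 0.53 over 77 members against 0.11, with 5 higher (12.7% of all symbols) and 4 lower (20.4%). Each of these comparisons has 1 library a side.

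The epidermal excess was seen in each complex. In WT ear the median difference was 0.85 for complex I, 1.06 for complex III, 0.83 for complex IV and 1.04 for complex V. Uqcr11, a small subunit of complex III, stood at 254 FPKM in WT ear epidermis and 82.7 FPKM in WT ear dermis, a difference of 1.61. Ndufa10, an accessory subunit of complex I, stood at 172 and 63.2 FPKM (difference 1.43), and the complex III core subunit Uqcrc1 at 224 and 85.0 FPKM (difference 1.39). Atp5b stood at 646, 827 and 702 FPKM in Koa ear, WT ear and WT dorsal epidermis, and at 295, 325 and 403 FPKM in the dermal libraries in the same order. The 3 epidermal values of Atp5b lay above the 3 dermal ones. This held for 53 of the 71 members with a median of 10 FPKM or more (74.6%), against 39.5% of 6934 symbols at that level. The highest of the 6 libraries was WT dorsal epidermis for 38 of the 71 members (53.5%, against 30.0% of the 6934 symbols) and WT ear epidermis for 31 (43.7%, against 27.1%). The order among the epidermal libraries depends on their totals. Summed FPKM without short RNAs was 746587 in WT dorsal, 549248 in WT ear and 496841 in Koa ear epidermis.

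With each library scaled to the same summed FPKM, the median of all symbols shifted by -0.30 in WT ear, -0.48 in WT dorsal skin and -0.17 in Koa ear. Relative to the median of all symbols, the members stood 0.82 higher in WT ear epidermis as deposited and 0.80 higher after that scaling. In WT dorsal skin the relative values were 0.69 and 0.63, and in Koa ear 0.42 and 0.40. Subtracting the keratinocyte share from the dermal libraries raises these differences by construction for each gene that epidermis expresses. The members' medians were then 1.14 in WT ear, 2.68 in WT dorsal skin and 0.79 in Koa ear, against 0.20, 0.88 and 0.29 over all symbols. By transcript length, the members' median in WT ear was 0.88 up to 600 nt, 0.91 from 600 to 1000 nt and 0.88 above 1000 nt, against 0.50, 0.33 and 0.07 over all symbols. In WT dorsal skin it was 0.91, 0.88 and 0.70, against 0.49, 0.42 and 0.13. In Koa ear it was 0.38, 0.49 and 0.66, against 0.33, 0.19 and 0.11, so the shortest members there lay close to all symbols.

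**Figure D2:**
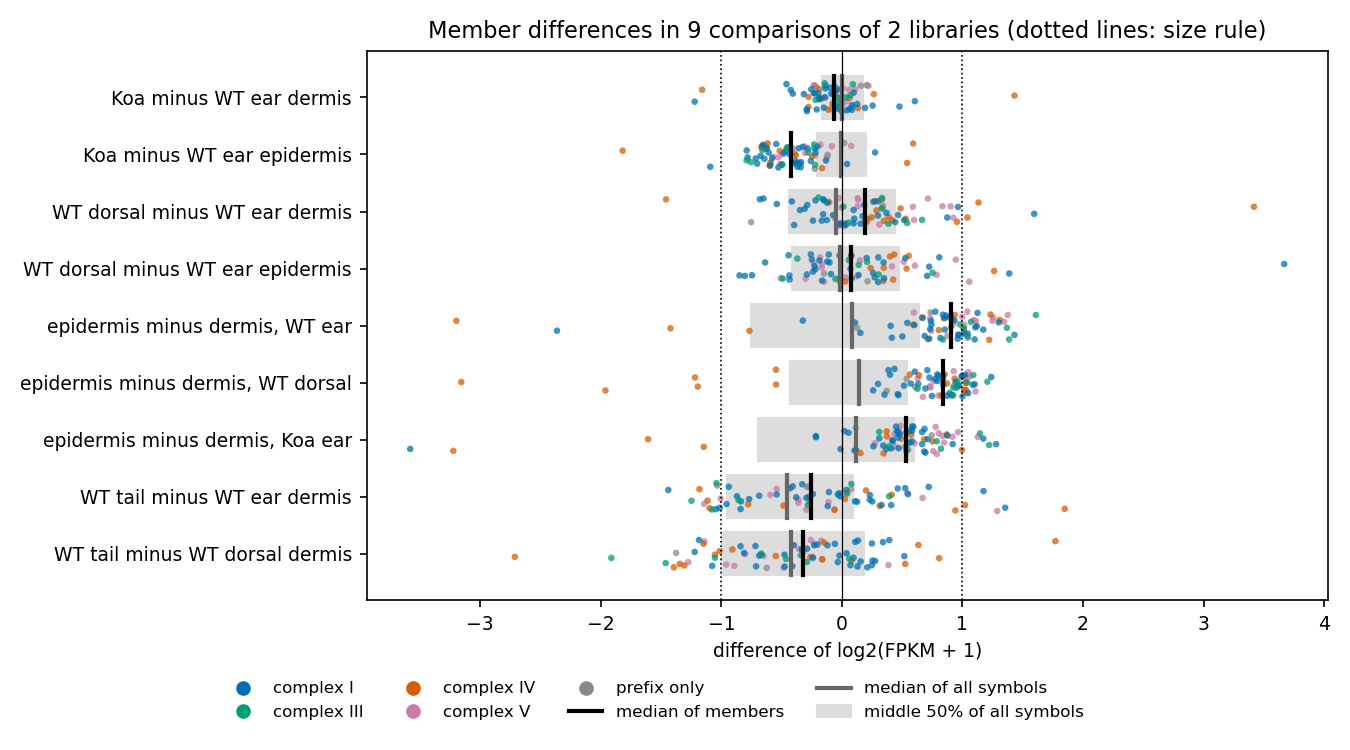
Difference of log2(FPKM + 1) for each member in 9 comparisons of 2 libraries, each point being 1 gene coloured by complex, with black bars at the median of the members, grey bars at the median of all symbols and grey boxes over the middle 50% of all symbols; dotted lines mark the size rule of 1. The members lie to the right in the 3 layer comparisons (medians 0.91, 0.84 and 0.53) and to the left between Koa and WT ear epidermis (-0.42).

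Between genotypes, the subunit genes were lower in Koa than in WT ear epidermis, by a small and widely shared amount. The median difference was -0.42 over 76 members, against -0.01 over all symbols. Of the 76, 70 were below 0 (50.9% of all symbols) and 30 were lower by at least 0.5 (6.07% of all symbols). Past the size rule of 1 were 2 lower members (0.854% of all symbols) and 0 higher (2.15%). The medians of the complexes were close together: -0.45 for complex I, -0.48 for complex III, -0.52 for complex IV and -0.36 for complex V. The 6 members above 0 were Ndufs5, Atp5d, Ndufs1, Atp5s, Cox6b2 and Cox7a1. In the same comparison 7 of 8 basal keratinocyte markers were above 0, with a median of 0.38, and 7 of 7 suprabasal ones, with a median of 0.59 and 4 higher by at least 0.5. Of 6 sebaceous gland markers, 4 were below 0. The part of these cell types in the members' values was not tested.

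Cox7b, a small nuclear subunit of complex IV encoded on chromosome X, had the largest difference of the members in this comparison. It stood at 91.2 FPKM in Koa ear epidermis, 324 FPKM in WT ear epidermis and 331 FPKM in WT dorsal epidermis. In dermis it stood at 60.9 FPKM in Koa ear, 137 FPKM in WT ear, 163 FPKM in WT dorsal and 63.6 FPKM in tail. The Koa library was the lowest of its layer in epidermis, and was the lowest of the 4 dermal libraries, with tail close to it. The Koa to WT ratio was 0.281 in epidermis (exact 95% interval 0.269 to 0.294 from about 2569 and 10424 fragments). In dermis it was 0.444 (0.419 to 0.470, from about 1732 and 3968 fragments). These intervals cover counting error only. On the log2 scale the differences were -1.82 and -1.16. The neighbouring genes on chromosome X, chosen after the values were seen, differed less: in ear epidermis Atp7a stood at 5.61 FPKM in Koa against 4.77 FPKM in WT, and Magt1 at 17.8 and 23.8 FPKM.

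Ndufa4l2, a paralog of Ndufa4 known as a target of the hypoxia-inducible factor, was the other member past the rule, at 5.92 FPKM in Koa against 13.7 FPKM in WT (difference -1.09). It is described with the isoforms. The next furthest was Uqcr11, at 147 FPKM in Koa against 254 FPKM in WT (difference -0.79). At the other end, Ndufs5 stood at 13 and 10.6 FPKM (0.28), Atp5d at 108 and 103 FPKM (0.08) and Ndufs1, the largest subunit of complex I, at 52.9 and 51.3 FPKM (0.04).

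The Koa difference was smaller in the dermis. There the median was -0.06 over 77 members, against -0.003 over all symbols, with 51 members below 0 (50.6% of all symbols). By the size rule 1 member was higher (1.71% of all symbols) and 2 lower (1.07%). In ear dermis Cox6b2 stood at 9.81 FPKM in Koa against 3.01 FPKM (difference 1.43), Ndufs5 at 5.20 and 13.5 FPKM (-1.22) and Cox7b as given above. Ndufs5, a subunit of complex I, has a near-identical gene in the table, BC002163, at 20.8 FPKM in Koa against 18.6 FPKM in WT, so its own value is uncertain. The epidermal and dermal differences share no library. Subtracting the dermal difference from the epidermal one gave a median of -0.32 over 76 members, with 73 below 0 and 3 above. Over 11514 symbols the median was -0.01, with 5878 below 0 and 5636 above. Below 0 in both layers were 49 of 76 members (64.5%), against 35.7% of all symbols. Basal keratinocyte markers were above 0 in Koa relative to WT ear dermis for 8 of 8, with a median of 1.01; their part in the dermal values was not tested.

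Transcript length went with the Koa difference in epidermis, as the plot of differences by length shows. The members' median was -0.49 up to 600 nt, -0.54 from 600 to 1000 nt and -0.24 above 1000 nt. Over all symbols it was -0.23, -0.21 and 0.01. In each class the members lay below all symbols, by 0.27, 0.32 and 0.25. Scaling to the same summed FPKM moved the median of all symbols by 0.13 and the members' median to -0.28; relative to all symbols the members stood at -0.42 as deposited and -0.40 after scaling.

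**Figure D3:**
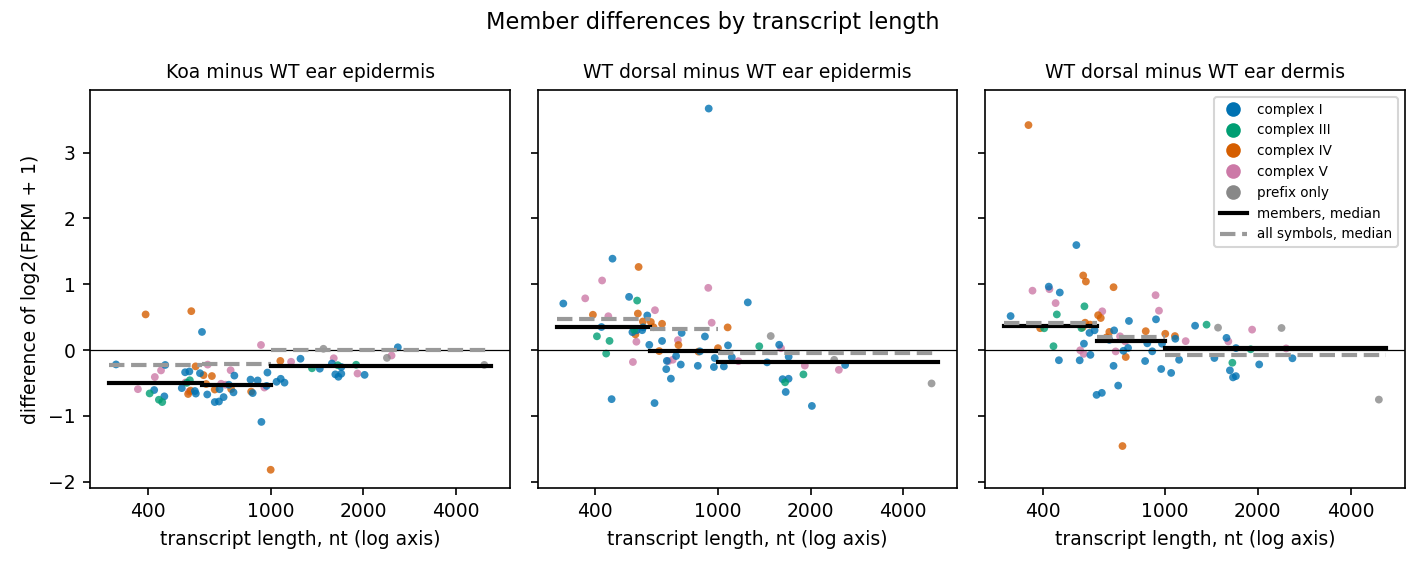
Member differences of log2(FPKM + 1) against transcript length in nt (log axis) in 3 comparisons, coloured by complex, with black lines at the members' median and dashed grey lines at the median of all symbols in 3 length classes. Between Koa and WT ear epidermis the black lines (-0.49, -0.54 and -0.24) lie below the grey ones (-0.23, -0.21 and 0.01); between WT dorsal and WT ear skin both lines are highest in the shortest class.

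Between body regions the members differed in both directions, in comparisons that share the WT ear libraries with the genotype comparisons. In dermis the dorsal minus ear median was 0.19 over 80 members against -0.05 over all symbols, with 4 higher by the size rule (11.7% of all symbols) and 1 lower (7.05%). In epidermis it was 0.08 over 76 members against -0.02, with 4 higher (11.5% of all symbols) and 0 lower (5.47%). The shares of members past the rule were below those of all symbols in both layers. Scaling to the same summed FPKM shifted the median of all symbols by -0.19 in dermis and -0.40 in epidermis and turned the members' medians to -0.016 and -0.36. Relative to all symbols the members stood 0.23 higher in dermis as deposited and 0.22 higher after scaling, and 0.10 and 0.06 higher in epidermis. Subtracting the keratinocyte share from the dermal libraries lowers by construction each gene that epidermis expresses, with the largest share taken off in dorsal dermis; it gave a dermal median of -1.48 for the members and -0.78 for all symbols. The 40.7% keratinocyte share of the dorsal dermal library and its stress-response genes, 11 of 11 higher than in ear with a median of 3.36, go with this comparison; in epidermis the stress genes were 11 of 11 higher with a median of 3.19. The part of the stress genes in the members' values was not tested.

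The members' median was highest in the shortest class of transcripts. In dermis it was 0.37 up to 600 nt, 0.14 from 600 to 1000 nt and 0.03 above 1000 nt, against 0.42, 0.19 and -0.07 over all symbols. In epidermis it was 0.35, -0.02 and -0.18, against 0.47, 0.31 and -0.05. In epidermis the members lay below all symbols in each length class.

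Ndufa3, an accessory subunit of complex I with a transcript of 515 nt, was past the size rule in dermis. It stood at 53.9 FPKM in WT ear dermis, 82.5 FPKM in Koa ear dermis, 165 FPKM in WT dorsal dermis and 139 FPKM in tail dermis. In epidermis it stood at 81.9 FPKM in Koa ear, 123 FPKM in WT ear and 216 FPKM in WT dorsal skin. The dorsal library was the highest in each layer, with differences of 1.6 in dermis and 0.81 in epidermis. Ndufb2, another accessory subunit of complex I, stood in epidermis at 131 FPKM (dorsal) against 49.5 FPKM (WT ear), a difference of 1.39, and Atp5e, the epsilon subunit of ATP synthase, at 445 and 213 FPKM (1.06). At the other end in epidermis were Ndufa10 (95.1 and 172 FPKM, -0.85), Ndufb7 (67.9 and 119 FPKM, -0.81) and Ndufa4 (221 and 372 FPKM, -0.75). In dermis the lowest after Cox4i2 were Cox4nb (6.84 and 12.2 FPKM, -0.75) and Ndufs5 (8.02 and 13.5 FPKM, -0.68).

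Tail dermis was lower than ear and dorsal dermis over all symbols, with medians of -0.46 and -0.42. The members' medians were -0.25 over 76 and -0.32 over 79, so they stood 0.20 and 0.10 above the median of all symbols. The sign of this distance turned with transcript length. Against ear dermis it was 0.15 up to 600 nt, 0.25 from 600 to 1000 nt and -0.39 above 1000 nt. Against dorsal dermis it was 0.15, 0.21 and -0.25 in the same classes. Against ear dermis 5 members were higher by the size rule (6.66% of all symbols) and 12 lower (23%). Against dorsal dermis 1 was higher (7.46%) and 16 lower (25%). The subunits furthest below ear dermis were Ndufa10 (22.6 and 63.2 FPKM), Uqcrh (81.8 and 196 FPKM) and Cox7a2l (65.0 and 149 FPKM), which in mouse takes part in supercomplex assembly. Those furthest above were Cox6b2, Ndufa3 and Atp5k, a subunit of the membrane part of ATP synthase (421 and 172 FPKM). Against dorsal dermis the furthest below were Cox8b, Uqcrh and Uqcrfs1 (17.7 and 50.4 FPKM), and the furthest above were Cox4i2, Cox6b2 and Cox6a1 (512 and 330 FPKM).

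The tissue-restricted forms of complex IV departed from this common pattern. Cox4i2, a form of subunit 4 that in mammals is found in lung and in vascular cells, stood at 10.9 FPKM in Koa ear dermis, 10.3 FPKM in WT ear dermis, 3.13 FPKM in WT dorsal dermis and 13.1 FPKM in tail dermis. In epidermis it stood at 0.27, 0.24 and 0.060 FPKM in Koa ear, WT ear and WT dorsal skin. All dermal values lay above all epidermal ones, the reverse of its widespread partner Cox4i1, which ranged from 493 to 784 FPKM in epidermis and from 341 to 413 FPKM in dermis. The difference between epidermis and dermis of WT ear was -3.20 for Cox4i2, and between dorsal and ear dermis -1.46. The summed level of 8 pericyte and smooth muscle markers was 224 to 464 FPKM in the dermal libraries and 16.2 to 27.5 FPKM in the epidermal ones. In WT dorsal dermis, where Cox4i2 was lower than in ear, that sum was 293 FPKM, against 224 FPKM in WT ear dermis. By the size rule 3 of the 8 markers were higher in dorsal than ear dermis (11.7% of all symbols) and 4 lower (7.05%). The median of the 8 differences was -0.68, so the sum follows its most abundant genes. Higher in dorsal dermis were Acta2 (133 FPKM against 63.9 FPKM in ear), Tagln (80.2 and 28.5 FPKM) and Myh11 (42.0 and 19.0 FPKM). Lower were Rgs5 (8.18 and 42.5 FPKM), Kcnj8 (8.05 and 30.4 FPKM), Abcc9 (4.85 and 13.4 FPKM) and Cspg4 (5.66 and 13.9 FPKM). The part of these markers' cells in the Cox4i2 values was not tested.

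**Figure D4:**
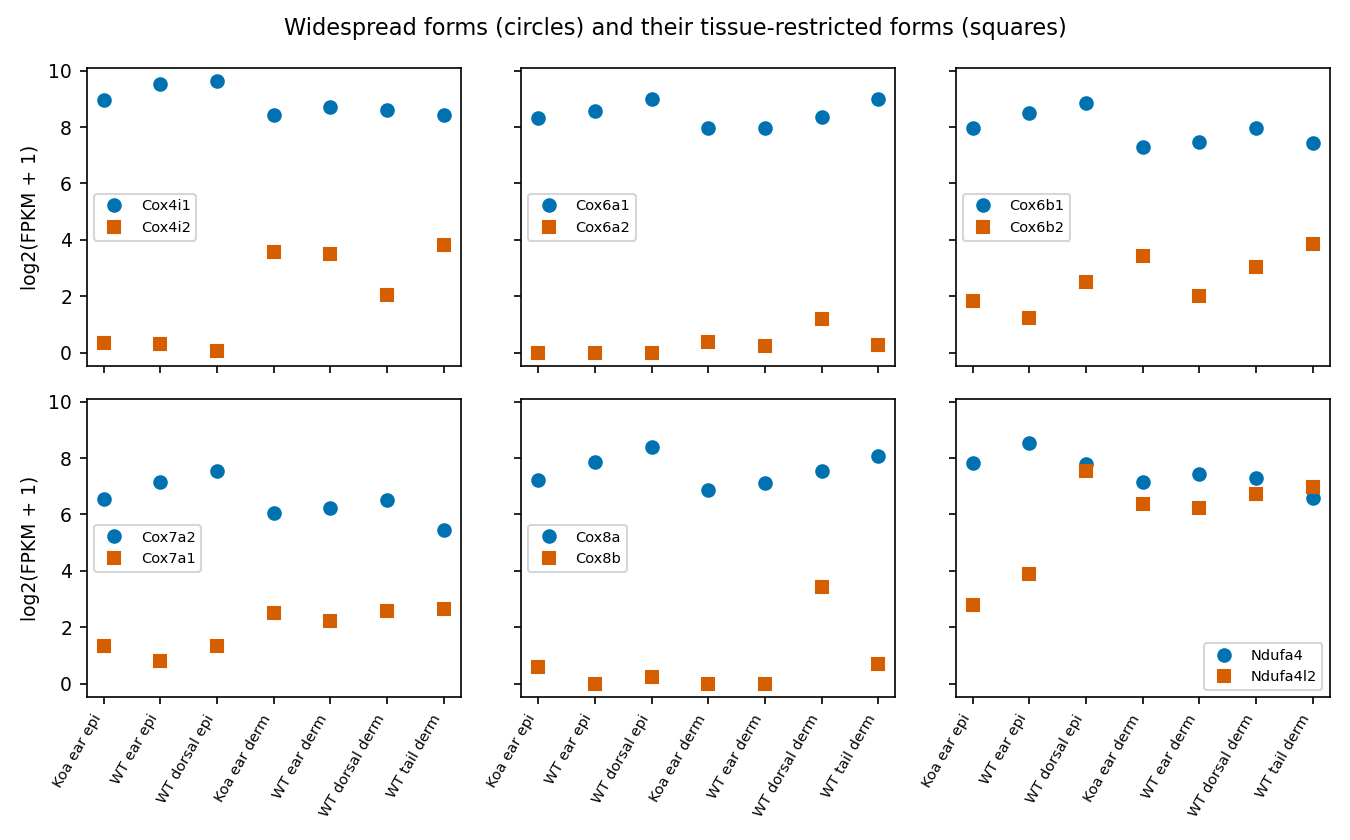
Level, as log2(FPKM + 1), of 6 widespread forms (circles) and their restricted or regulated forms (squares) in the 7 libraries. The circles lie high in every library, while Cox4i2 is high in dermis (3.13 to 13.1 FPKM), Cox8b only in dorsal dermis (9.69 FPKM) and Ndufa4l2 low only in ear epidermis (5.92 and 13.7 FPKM).

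Cox8b, a form of subunit 8 found in muscle and brown fat of mice, stood at 9.69 FPKM in WT dorsal dermis (about 49 fragments) and was listed at 0 in both ear dermal libraries. It stood at 0.63 FPKM in tail dermis and at 0.53, 0 and 0.20 FPKM in Koa ear, WT ear and WT dorsal epidermis. Its widespread partner Cox8a was 115 to 337 FPKM in the same 6 libraries. Cox6a2, another muscle form, was 1.29 FPKM in dorsal dermis and at most 0.31 FPKM elsewhere. Cox7a1, the muscle and heart form of subunit 7a, was 3.72 to 5.29 FPKM in the dermal libraries and 0.76 to 1.56 FPKM in the epidermal ones. The summed level of 11 skeletal muscle markers was 49.9 FPKM in dorsal dermis, against 18.1 FPKM in Koa ear dermis, 25 FPKM in WT ear dermis and 14.8 FPKM in tail dermis. With dorsal dermis set against ear dermis, 5 of the 7 muscle markers tested were higher by the size rule (11.7% of all symbols) and 0 lower (7.05%). Of the 11 listed, 7 reached the filter of 1 FPKM in dorsal dermis and 5 in WT ear dermis. Myl1 and Pvalb were tested only because of their dorsal level, so the number tested depends partly on the result. Of a list of 5 brown fat markers, which holds Cox8b itself, Ucp1 was at most 0.14 FPKM and Otop1 at most 0.49 FPKM in every library. The others were not low throughout. Over the 7 libraries Cidea ranged from 2.27 to 46.4 FPKM and Elovl3 from 1.01 to 19.8 FPKM, both highest in WT ear epidermis. The part of muscle or brown fat RNA in the Cox8b value was not tested.

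The forms known from testis were low. Cox6b2 ranged from 1.36 FPKM in WT ear epidermis to 9.81 FPKM in Koa ear dermis and 13.4 FPKM in tail dermis, beside 156 to 458 FPKM for Cox6b1 in the 6 libraries other than tail. Cox7b2 reached 1.55 FPKM in dorsal dermis, and Cox8c was listed at 0 in all libraries but tail, where it stood at 0.18 FPKM.

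Ndufa4l2 had the widest range of the abundant members, 31.5-fold between the highest and lowest of the 6 libraries. It stood at 5.92 FPKM in Koa ear epidermis, 13.7 FPKM in WT ear epidermis and 187 FPKM in WT dorsal epidermis. In dermis it stood at 81.8 FPKM in Koa ear, 74.9 FPKM in WT ear, 104 FPKM in WT dorsal and 124 FPKM in tail. The ear epidermal libraries were low and all others high. The dorsal to ear ratio in epidermis was 13.6 (exact 95% interval 12.2 to 15.1, counting error only), a difference of 3.67. Ndufa4 in the same epidermal libraries stood at 228, 372 and 221 FPKM, lower in dorsal than in WT ear skin.

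Genes that work beside the subunits are given from lists of known members. Complex II, which links the citric acid cycle to the chain, had 4 of 4 genes below 0 in Koa relative to WT ear epidermis, with a median of -0.20; Sdhd stood at 65.3 and 88.3 FPKM (-0.43). Both tested genes of the cytochrome c list were also below 0, with a median of -0.35. They were Cycs, which encodes cytochrome c, and Cyc1, which encodes the cytochrome c1 subunit of complex III. Of 44 assembly factors, 35 were below 0 with a median of -0.16, and 3 were lower by at least 0.5, among them Cox18 (9.27 and 14.1 FPKM) and Ndufaf2 (25.3 and 36.5 FPKM). Of 15 import and carrier genes, 13 were below 0 with a median of -0.25, and 4 were lower by at least 0.5. Tomm20, a receptor of the outer membrane translocase, stood at 183 FPKM in Koa against 288 FPKM in WT (-0.65). None of these lists had a gene past 1 in either direction in this comparison. The background past 0.5 lower was 6.07% of all symbols.

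Other metabolic lists had medians nearer 0 between genotypes. The citric acid cycle had a median of -0.13 (13 of 16 below 0), glycolysis -0.09 (11 of 16 below 0), regulators of mitochondrial biogenesis 0.01 (5 of 11 below 0) and fatty acid oxidation 0.06 (4 of 15 below 0). Acadl, the long-chain acyl-CoA dehydrogenase, stood at 46.9 FPKM in Koa against 25.5 FPKM in WT (0.85). Tfam, which packages and transcribes mitochondrial DNA, stood at 13.8 and 17.9 FPKM (-0.35). Genes of the mitochondrial ribosome had a median of -0.30 (70 of 76 below 0) and those of the cytosolic ribosome -0.39 (75 of 77 below 0). The cytosolic ribosomal genes, which are not part of the chain, thus had a median close to that of the members (-0.42).

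**Figure D5:**
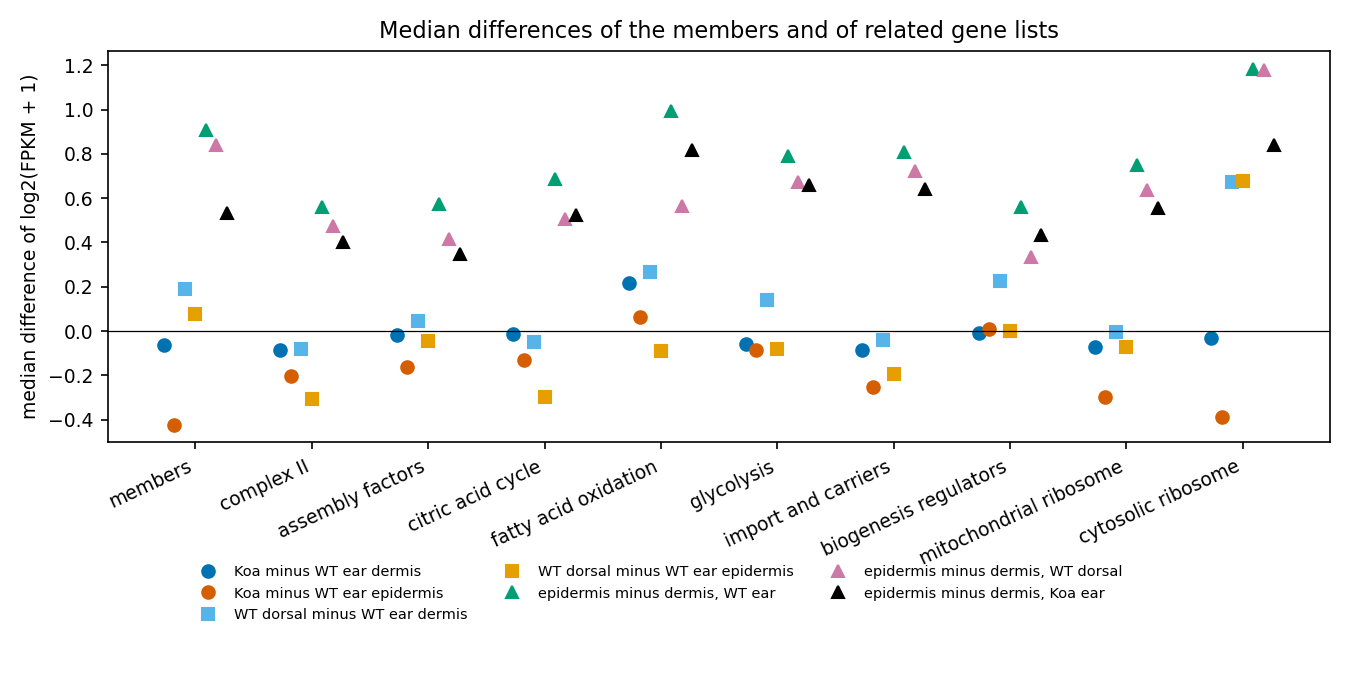
Median difference of log2(FPKM + 1) for the members and 9 related gene lists (x axis) in 7 comparisons, 1 symbol for each comparison. Triangles, the epidermis minus dermis comparisons, lie above 0 for all 10 sets, and the Koa minus WT ear epidermis circles of the members (-0.42) and of the cytosolic ribosome (-0.39) are the lowest of that comparison.

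Between layers the related lists lay on the same side. In WT ear the epidermis minus dermis median was 0.56 for complex II (4 of 4 above 0), 0.57 for assembly factors (39 of 44), 0.69 for the citric acid cycle (16 of 16), 0.99 for fatty acid oxidation (15 of 15), 0.79 for glycolysis (15 of 16) and 0.56 for biogenesis regulators (11 of 11). It was 0.81 for import and carriers (14 of 15), 0.75 for the mitochondrial ribosome (75 of 76) and 1.18 for the cytosolic ribosome (77 of 79). Citrate synthase, Cs, stood at 149 FPKM in WT ear epidermis and 54.6 FPKM in WT ear dermis (1.44). Slc25a5, an adenine nucleotide carrier of the inner membrane, stood at 558 and 170 FPKM (1.71), and Acad9, an assembly factor of complex I, at 83.5 and 17.6 FPKM (2.19). The 1 import and carrier gene below 0 was Slc25a4, at 148 and 179 FPKM.

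Between dorsal and ear skin the lists parted. The cytosolic ribosome had medians of 0.67 in dermis (77 of 79 above 0) and 0.68 in epidermis (75 of 77), above those of the members (0.19 and 0.08). The mitochondrial ribosome stood at -0.005 in dermis and -0.07 in epidermis. The citric acid cycle stood at -0.05 in dermis and at -0.30 in epidermis, where 15 of 16 genes were below 0, and complex II at -0.08 and -0.31. These list medians are as deposited, and the lists were not run under the scaling given above. That scaling shifted the median of all symbols by -0.19 in dermis and -0.40 in epidermis. A shift of that size would leave the list medians below 0 still below 0. The medians of the cytosolic ribosome are larger than these shifts.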

How the data were processed

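RNA-seq of 7 mouse skin libraries was used, 1 per group. The deposited table holds the authors' FPKM. The tools named in the submitters' processing notes are Cufflinks 2.2.1 and TopHat2 2.0.13; those notes also name mm9 and GRCm38, and the role of each build is not given in the sources used here. Column names were matched to sample titles. From these FPKM values, differences of log2(FPKM + 1) were taken for symbols at 1 FPKM or more in 1 of 2 libraries; a difference of at least 1 (or 0.5) was counted, with no test because each group has 1 library. Named members were the isoform lists, the 3 furthest apart in each direction per comparison with at least 5 FPKM, those past 1, and the 2 highest and lowest of each complex. Col1a1, Col1a2 and Col3a1, each listed at 0 in 2 or more of the dermal libraries, were left out of the counts over all symbols.

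Positions and promoters came from RefSeq GRCm38.p6 and transcript lengths from GENCODE; 77 members matched by symbol and 4 by an older symbol. Copies were searched with BLAST 2.17.0. Depth was fitted from single-transcript genes, of whose low values 64.6% to 67.2% lay on whole fragments (tolerance 0.03), against 6% without steps. Tested on simulated data, the largest depth error was 0.519%. There the size rule returned 100 of 100 genes changed 2.5 times between Koa and WT ear epidermis (8636 genes simulated). Of the unchanged genes, 0 were past it. A change of 2.5 times is larger than the rule itself, so this result checks only the working of the rule. Variation between animals, which is not measured with 1 library per group, was not simulated. The result therefore gives no rate of false calls for these comparisons. Python 3.11.15, numpy 2.4.6, scipy 1.17.1 and pandas 2.3.3 were used. Members and lists were chosen with earlier results of these data known. The ribosomal lists, the rules for transcript length and copies, the length classes, the motifs and the promoters shown were chosen after the values were seen.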

Additional observations from a re-analysis of the deposited data

Results flagged for a closer look

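Ndufa3, an accessory subunit gene of complex I, went opposite ways between Koa and WT ear in the 2 layers: 0.61 on the log2(FPKM + 1) scale in dermis and -0.58 in epidermis. The libraries of the layers are separate, 1 for each group, and the difference between the layers was not tested.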

How the results depend on the processing

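No paired analysis was possible because each group has 1 library. Of 77 alternative values of the members' medians 61 stayed within 0.1 with the same sign, and of 77 counts past the size rule 59 stayed within 1.5 times. Of 492 alternative values for single named members, 338 stayed within 0.1 with the same sign and 154 did not. The median between Koa and WT ear epidermis was negative under every alternative run.

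With each library scaled to the same summed FPKM, the median moved to -0.28 between Koa and WT ear epidermis (count 1), to -0.016 and -0.36 between dorsal and ear dermis and epidermis, to 0.59 (count 9), 0.29 (count 4) and 0.34 between epidermis and dermis of WT ear, WT dorsal and Koa ear, and to -0.10 between tail and dorsal dermis. Centring on the median of all symbols gave 0.69 (count 6) in WT dorsal and 0.42 in Koa ear between layers, and 0.20 (count 9) and 0.10 (count 6) for tail against ear and dorsal dermis. Subtracting the keratinocyte share gave -1.48 (count 64) between dorsal and ear dermis, and 1.14 (count 53), 2.68 (count 78) and 0.79 (count 26) between the layers of WT ear, WT dorsal and Koa ear. A pseudocount of 5 gave counts of 1 for Koa against WT ear in dermis and 1 in epidermis, 2 for dorsal against ear dermis, 14 between the layers of WT dorsal skin, and 11 for tail against ear and 11 against dorsal dermis. A mean of at least 5 FPKM gave a count of 3 for dorsal against ear dermis, transcripts of at least 500 nt a count of 2 for dorsal against ear epidermis, and no filter a median of -0.11 for tail against ear dermis. The causes were not tested beyond what each alternative changes. Leaving out the 3 genes that share only the prefix, an alternative chosen after seeing the data, left every median and count within these bounds.

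With 1 library per group, variation between animals is not measured, and the counting intervals do not cover it. The subtraction assumes that keratinocytes in the dermal libraries express the members as the matching epidermal library does.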
